A study of Homo sapiens with 6 samples.

Results

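The mRNAs of mitochondrial ribosomal proteins were measured in A375 cells, an established human melanoma line, with and without 24 h of treatment with a methionine-degrading enzyme. The genes were taken as every protein-coding gene whose symbol is MRPL (large subunit) or MRPS (small subunit) and a number, with antisense genes and pseudogenes left out. The rule found 78 genes, 49 MRPL and 29 MRPS, among 58523 genes with a matched transcript, 19885 of them protein-coding. RNA of 6 independent cultures was sequenced. The 3 control cultures (replicates 1 to 3) were A375 cells left untreated, and the 3 treated cultures (replicates 4 to 6) were A375 cells given hMGL for 24 h. hMGL is an engineered human enzyme that degrades methionine. Both groups grew in the same serum-containing medium. A vehicle or inactive enzyme group was not analysed here, and all cultures were of this 1 cell line.

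Mitochondria hold their own ribosome, the mitoribosome, which translates the few proteins encoded by mitochondrial DNA, all of them subunits of the respiratory chain and the ATP synthase. Its ribosomal RNAs are made in the mitochondrion, while all of its proteins are encoded in the nucleus, made in the cytosol and imported, so that the parts must be matched across compartments. Some of these proteins descend from bacterial ribosomal proteins and others were added in mitochondria. The small subunit reads the codon, and the large subunit joins the amino acids and releases the chain at the inner membrane.

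Libraries held 50760266 to 59954677 estimated counts. Levels below are CPM (estimated counts relative to the library total, after TMM scaling), unless TPM is named. The scaling centres the bulk of genes on zero, so each difference is relative to the other genes and not an amount per cell, and fewer cells and less RNA per cell cannot be told apart. Errors of levels are SD (n = 3 per group), and the SE is that of a log2 fold change, treated over control. Of the melanocyte lineage markers, the factor SOX10 fell from 417 ± 31.4 CPM in control to 349.7 ± 6.77 CPM in treated libraries (log2 fold change -0.26, SE 0.05, adjusted p = 0.0017), while MITF, at 43.8 ± 1.86 CPM in control and 41.5 ± 0.399 CPM in treated libraries, did not pass (adjusted p = 0.08). S100B, a calcium-binding protein of melanocytes, fell most, from 38.6 ± 0.831 CPM in control to 5.83 ± 1.12 CPM in treated libraries (log2 fold change -2.72, SE 0.13, adjusted p = 3e-06). The pigment genes PMEL, MLANA, TYR, DCT and TYRP1 were all under 1 CPM on average in control libraries. Of these, PMEL (to 2.05 CPM), TYRP1 (to 0.724 CPM) and DCT (to 0.432 CPM) rose, by 1.88, 2.81 and 0.92 on the log2 scale, MLANA did not pass and TYR was too low to test. Of 15 markers of other cell types, 11 were tested, of which 4 rose (KRT5, KRT10, CD68 and VWF), 4 fell (COL1A1, LUM, PDGFRB and KRT14) and 3 did not pass. Summed levels ran from 14.3 to 16.4 CPM in control and from 4.602 to 5.12 CPM in treated libraries for 5 fibroblast markers, and from 44.3 to 48.4 CPM and from 61.9 to 63.0 CPM for 4 keratinocyte markers. For 3 leukocyte markers the ranges were 29.6 to 32.6 and 35.9 to 38.6 CPM, nearly all of it CD68, and for 3 endothelial markers 0.872 to 1.52 and 2.52 to 2.81 CPM. The 4 markers too low to test, PTPRC, CD3E, CDH5 and KRT1, were at or under 0.207 CPM in every library, and the part of such cells in the results was not tested.

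Most mitoribosomal mRNAs differed between the groups, more of them upward than downward, and by small amounts. All 78 genes passed the filter on low counts and were tested. At an adjusted p under 0.05, 47 rose (60.3%) and 23 fell (29.5%), and 8 did not pass. Over all 22580 genes tested, 69.4% passed, 34.9% upward and 34.5% downward, and over the 15421 protein-coding genes tested 78.3% passed, 38.0% upward and 40.3% downward. The share that rose was thus above the background and the share that fell below it. The split depends on the method: limma on log2(TPM + 1), without TMM scaling, called 41 higher and 10 lower. The share of all genes that limma called is not given here, so a general shift cannot be told apart from one of these genes. The median log2 fold change of the 78 genes was 0.20, against -0.015 over all genes, but the median size of change regardless of direction was 0.30 against 0.59. Only 3 of the 78 both passed and changed at least 2-fold (3.85%), against 27.2% of all genes. A test that requires a change of at least 1.5-fold (glmTreat) called 15 of the 78 (19.2%), 11 higher and 4 lower, against 35.4% of all genes. In 70 of the 78 (89.7%) the 3 treated libraries lay on one side of the 3 control libraries, against 73.3% of all genes.

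**Figure D1:**
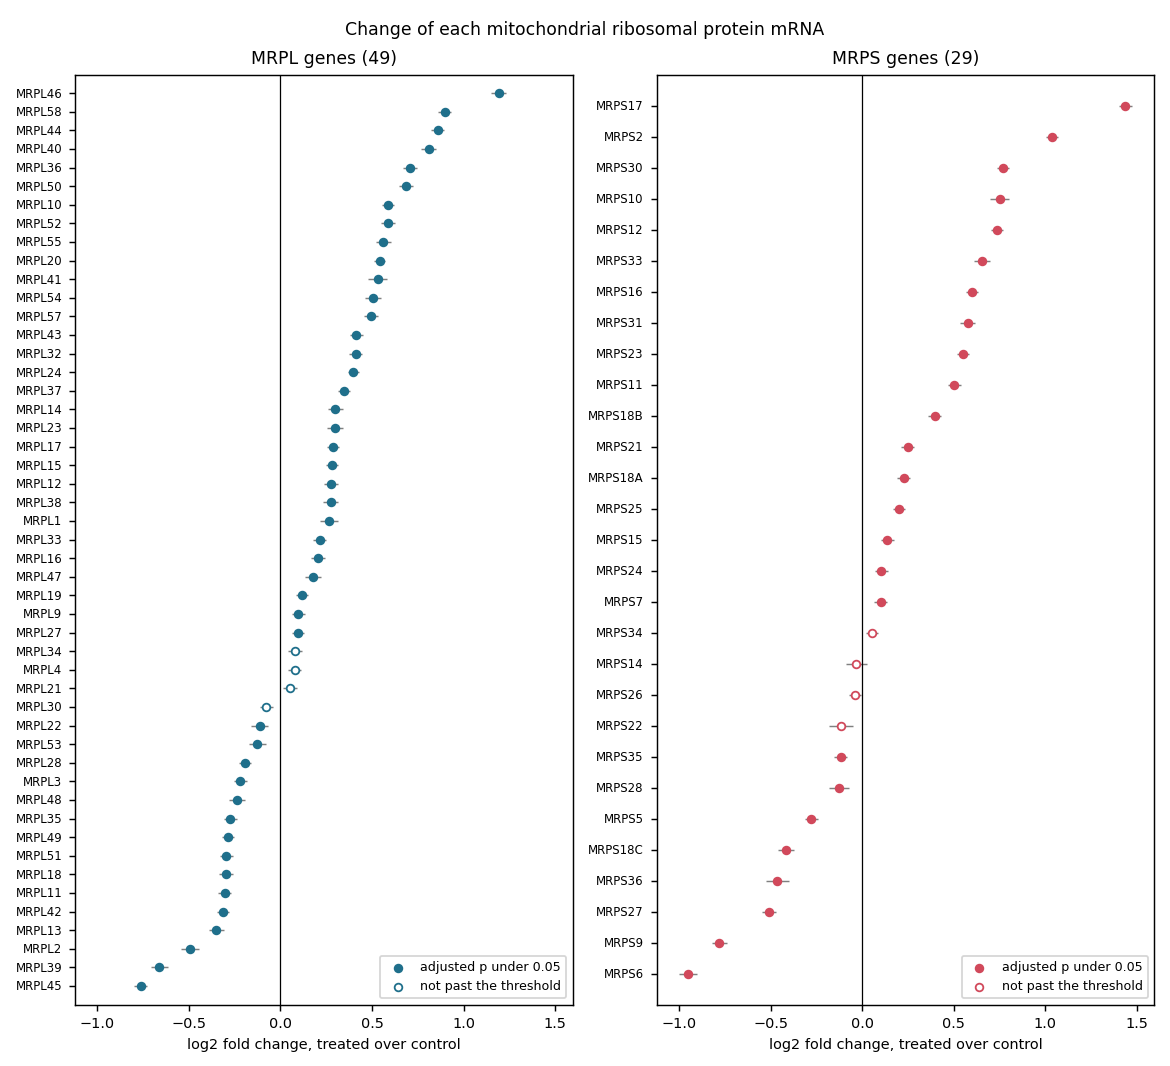
Log2 fold change (treated over control, horizontal axis) of each of the 49 MRPL genes (left) and 29 MRPS genes (right), ordered by change; points are edgeR estimates, bars 1 SE, filled points pass an adjusted p of 0.05. Changes run from -0.95 for MRPS6 to 1.44 for MRPS17, and 47 filled points lie above zero against 23 below.

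Of the small subunit, MRPS17 and MRPS2 rose most. MRPS17, which encodes the homolog of a bacterial protein that binds the small ribosomal RNA early in assembly, was at 45.6, 44.4 and 46.98 CPM in control replicates 1, 2 and 3 and 126, 123 and 122 CPM in treated replicates 4, 5 and 6. All treated libraries lay above all control libraries, 2.71-fold higher on average (log2 fold change 1.44, SE 0.034, adjusted p = 2.1e-16). Its exons share 21.8% of their bases with a readthrough gene on the same strand, with which reads may have been divided. MRPS2, the mitochondrial form of bacterial protein uS2, stood at 66.7, 61.5 and 64.6 CPM in the control libraries and 131, 132 and 132 CPM in the treated libraries. That is 2.05-fold higher (log2 fold change 1.04, SE 0.035, adjusted p = 1.7e-14), again without overlap.

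MRPS10, a protein of the head of the small subunit, measured 36.4, 31.4 and 33.7 CPM in the control libraries and 55.2, 56.2 and 59.6 CPM in the treated libraries (log2 fold change 0.75, SE 0.051, adjusted p = 8.6e-09). For MRPS12, which sits at the decoding centre, the values were 53.2, 54.3 and 53.8 CPM in the control libraries and 89.2, 91.4 and 88.1 CPM in the treated libraries (log2 fold change 0.74, SE 0.033, adjusted p = 1.1e-12). The groups were apart for both genes. MRPS16, in which inherited mutations impair mitochondrial translation, went from 73.6 ± 1.84 CPM in control to 111 ± 2.73 CPM in treated libraries (log2 fold change 0.60, SE 0.034, adjusted p = 2.3e-11).

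In the large subunit the highest change was that of MRPL46, which encodes a protein with no bacterial counterpart. It was at 30.4, 27.7 and 29.96 CPM in control replicates 1, 2 and 3 and 67.2, 66.5 and 67.5 CPM in treated replicates 4, 5 and 6, a 2.28-fold difference (log2 fold change 1.19, SE 0.04, adjusted p = 2.1e-14). The treated libraries lay within 1 CPM of each other and far above the controls. The exons of MRPL46 share 11.3% of their bases with another protein-coding gene on the same strand, with which reads may have been divided. MRPL58, a peptidyl-tRNA hydrolase that became a part of the ribosome and can free stalled chains, was at 37.2, 37.6 and 37.7 CPM in the control libraries and 68.5, 69.2 and 72.04 CPM in the treated libraries (log2 fold change 0.90, SE 0.036, adjusted p = 2.3e-13). MRPL44, a protein with a ribonuclease III fold, gave 27.4, 26.4 and 27.5 CPM in the control libraries and 49.1, 49.6 and 48.9 CPM in the treated libraries (log2 fold change 0.86, SE 0.036, adjusted p = 4.3e-13). Both rose without overlap between the groups. MRPL40 was at 36.2, 32.9 and 34.5 CPM in the control libraries and 58.4, 62.1 and 61.2 CPM in the treated libraries (log2 fold change 0.81, SE 0.042, adjusted p = 8e-12), and MRPL36, the homolog of the smallest bacterial large-subunit protein, at 33.2, 32.4 and 32.9 CPM in the control libraries and 52.99, 53.5 and 54.5 CPM in the treated libraries (log2 fold change 0.71, SE 0.036, adjusted p = 5.1e-12). These 2 genes also separated the groups fully.

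Among the genes that fell, MRPS6 changed most. This gene of a small-subunit platform protein was at 39.5, 36.5 and 41.2 CPM in control replicates 1, 2 and 3 and 20.8, 20.7 and 19.1 CPM in treated replicates 4, 5 and 6, with all treated libraries below all controls (log2 fold change -0.95, SE 0.05, adjusted p = 1.5e-11). On the same strand, its exons share 6.35% of their bases with SLC5A3 and 6.84% with another gene. Reads may have been divided with these genes. MRPS9, whose bacterial counterpart reaches the transfer RNA with its tail, was at 37.8, 36.7 and 38.2 CPM in the control libraries and 21.7, 21.4 and 22.5 CPM in the treated libraries (log2 fold change -0.78, SE 0.04, adjusted p = 6.3e-12). MRPS27, a pentatricopeptide repeat protein of the small subunit, was at 114, 106 and 112 CPM in the control libraries and 75.4, 76.4 and 80.8 CPM in the treated libraries (log2 fold change -0.51, SE 0.037, adjusted p = 9.2e-10). Neither gene had overlapping groups.

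MRPL45, which anchors the large subunit to the inner membrane near the exit of the nascent chain, was at 44.6, 42.1 and 43.2 CPM in the control libraries and 25.8, 25.6 and 25.02 CPM in the treated libraries (log2 fold change -0.76, SE 0.037, adjusted p = 3.4e-12). MRPL39, an added protein of the large subunit, was at 36.97, 33.9 and 37.5 CPM in the control libraries and 22.05, 22.6 and 23.8 CPM in the treated libraries (log2 fold change -0.66, SE 0.047, adjusted p = 6.6e-10). For MRPL2, which lies close to the peptidyl transferase centre, the values were 29.5, 28.6 and 28.3 CPM in the control libraries and 19.6, 21.9 and 19.9 CPM in the treated libraries (log2 fold change -0.49, SE 0.05, adjusted p = 8.1e-08). All 3 fell without overlap. MRPL13 went from 34.8 ± 1.57 CPM in control to 27.3 ± 0.899 CPM in treated libraries (log2 fold change -0.35, SE 0.043, adjusted p = 1.1e-06), and MRPL42 from 87.9 ± 0.944 CPM in control to 70.7 ± 0.181 CPM in treated libraries (log2 fold change -0.31, SE 0.032, adjusted p = 7.7e-08).

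**Figure D2:**
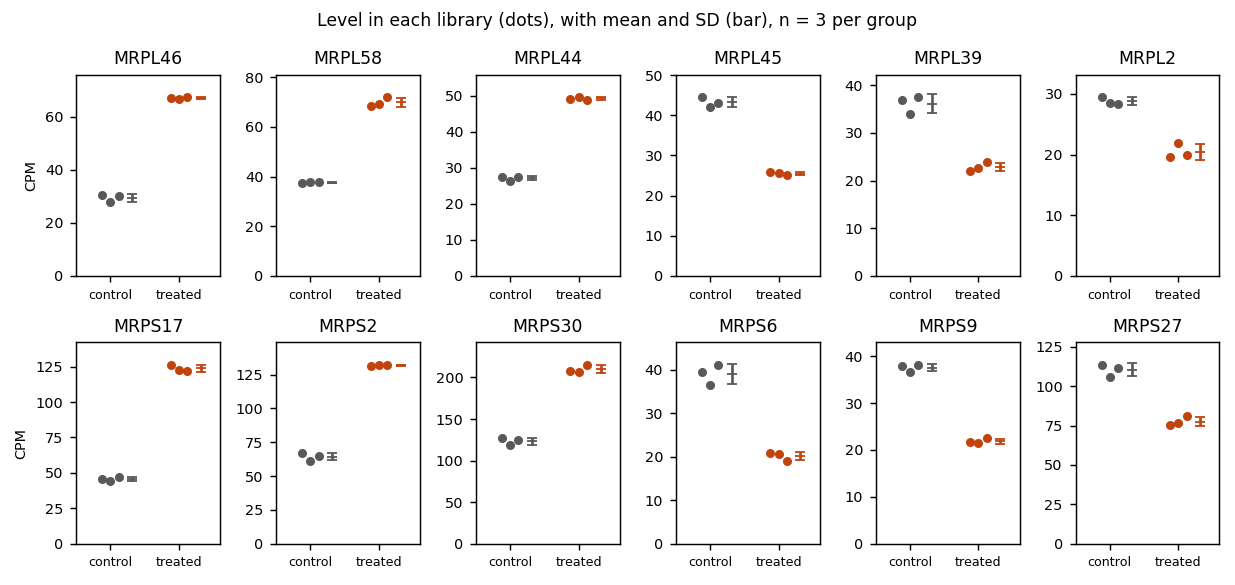
Level in CPM (vertical axis, from 0) of 12 mitoribosomal genes in each control (grey) and treated (orange) library; dots are libraries, bars the mean and SD of 3. In all 12 the groups are apart, MRPS17 going from 45.7 to 124 CPM and MRPS6 from 39.1 to 20.2 CPM on average.

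The most abundant members differed in size and direction of change. Per length, means over all libraries ran from 13.0 TPM for MRPS22 to 186 TPM for MRPL20, with a median of 39.3 TPM. MRPL20, which binds the large ribosomal RNA, was at 145 TPM in control and 228 TPM in treated libraries and rose (log2 fold change 0.54, SE 0.031, adjusted p = 2.6e-11, on counts). MRPL51 was at 188 TPM in control and 164 TPM in treated libraries and fell (log2 fold change -0.30, SE 0.034, adjusted p = 4.5e-07), a call that limma on log2(TPM + 1) did not make (adjusted p = 0.053). MRPL33 was at 142 TPM in control and 169.7 TPM in treated libraries and rose by 0.21 on the log2 scale (adjusted p = 4.7e-05), but not when protein-coding transcripts alone were summed (log2 fold change 0.059, adjusted p = 0.14). MRPS34, the MRPS mRNA with the highest TPM, was at 137 TPM in control and 157 TPM in treated libraries. Its log2 fold change of 0.053 did not pass (SE 0.031, adjusted p = 0.14). MRPS30, next to it at 77.9 TPM in control and 151 TPM in treated libraries, rose more than any other of these (log2 fold change 0.77). MRPS24, at 84.96 TPM in control and 97.5 TPM in treated libraries, had a log2 fold change of 0.10 (adjusted p = 0.013), which limma on log2(TPM + 1) did not call (adjusted p = 0.057). The Spearman correlation between control TPM and log2 fold change over the 78 genes was -0.18, given as a description over genes that share the same libraries.

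Several members are known for roles outside the core. MRPL12, the stalk protein that recruits translation factors and has been found to bind the mitochondrial RNA polymerase, went from 43.7 ± 1.54 CPM in control to 52.96 ± 1.403 CPM in treated libraries (log2 fold change 0.28, SE 0.039, adjusted p = 5.6e-06). Of its exonic bases, 68.2% are shared with a readthrough gene, so its reads could be divided between them. MRPL41, which has been linked to growth arrest through p53, rose by 0.53 on the log2 scale from 40.2 ± 3.27 CPM in control to 58.1 ± 1.66 CPM in treated libraries (adjusted p = 7e-07). MRPL3 and MRPS22 are both genes of inherited mitochondrial disease. MRPL3 fell by 0.22 on the log2 scale from 187 ± 4.92 CPM in control to 161 ± 5.92 CPM in treated libraries (adjusted p = 1.3e-05), although limma on log2(TPM + 1) did not call it (adjusted p = 0.38). MRPS22 was at 14.7 ± 1.16 CPM in control and 13.5 ± 0.311 CPM in treated libraries, and its log2 fold change of -0.12 did not pass (adjusted p = 0.13).

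Mammals carry a trio of genes related to the single bacterial protein S18, and these did not move alike. MRPS18C, the form in the original site of the small subunit, was at 32.7, 30.99 and 32.5 CPM in the control libraries and 22.99, 24.9 and 24.3 CPM in the treated libraries and fell (log2 fold change -0.41, SE 0.044, adjusted p = 1.5e-07). MRPS18B, placed elsewhere in the small subunit (mS40), was at 71.5, 68.2 and 68.1 CPM in the control libraries and 89.9, 89.2 and 94.2 CPM in the treated libraries and rose (log2 fold change 0.39, SE 0.035, adjusted p = 1.6e-08). MRPS18A, which belongs to the large subunit (mL66), was at 42.6, 40.3 and 40.6 CPM in the control libraries and 48.1, 46.96 and 49.4 CPM in the treated libraries and rose (log2 fold change 0.23, SE 0.038, adjusted p = 4.5e-05). All 3 separated the groups. MRPS18C and MRPS18A share 40.2% and 47.0% of their exonic bases with genes on the opposite strand (ABRAXAS1 and RSPH9). Whether the counting used strand is not given in the sources used here.

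By symbol, the subunits had similar counts. Of the 49 MRPL genes 30 rose, 15 fell and 4 did not pass, with a median log2 fold change of 0.21. Of the 29 MRPS genes 17 rose, 8 fell and 4 did not pass, with a median of 0.14. At least 1.5-fold changes were called for 6 higher and 2 lower MRPL genes and for 5 higher and 2 lower MRPS genes. Summed over genes, MRPL mRNAs were at 2917, 2808 and 2928 CPM in control replicates 1, 2 and 3 and at 3190.1, 3237 and 3257 CPM in treated replicates 4, 5 and 6, a ratio of 1.119 between group means. MRPS mRNAs summed to 1878, 1796 and 1863 CPM in control and to 2238, 2226 and 2264 CPM in treated libraries, a ratio of 1.21. Both sums were higher in every treated library than in any control library.

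The ratio of the large to the small sum was 1.55, 1.56 and 1.57 in the control libraries and 1.43, 1.45 and 1.44 in the treated libraries, 0.921 times as high and without overlap. Its size depends on how genes are placed and on whether MRPS17 is counted. MRPS30 and MRPS18A carry small-subunit symbols but are proteins of the large subunit (mL65 and mL66), and MRPS36 (KGD4) is a component of the 2-oxoglutarate dehydrogenase complex and not of the ribosome. MRPS30 is among the most abundant of the MRPS mRNAs and rose from 123 ± 4.12 CPM in control to 210.1 ± 4.67 CPM in treated libraries (log2 fold change 0.77, SE 0.032, adjusted p = 3.8e-13). MRPS36 fell from 16.2 ± 0.835 CPM in control to 11.8 ± 0.525 CPM in treated libraries (log2 fold change -0.46, SE 0.063, adjusted p = 3.7e-06). With genes placed by their position in the mitoribosome, 51 large-subunit genes had 32 that rose and 15 that fell (median 0.23), and 26 small-subunit genes had 15 that rose and 7 that fell (median 0.12). The 5 mitoribosomal proteins with other symbols listed below are left out of these groups and of their sums and ratios.

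By place the ratio went from 1.83 ± 0.00869 to 1.77 ± 0.0156, 0.965 times as high, still without overlap. Without MRPS17 as well, a choice made after seeing the data, it was 1.88 ± 0.00995 in control and 1.89 ± 0.0146 in treated libraries, and the groups overlapped. On summed TPM by place the ratio was 2.33 ± 0.0209 and 2.31 ± 0.0241, also with overlap. The groups were thus apart by symbol and by place on CPM, and overlapped in these last 2 forms.

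**Figure D3:**
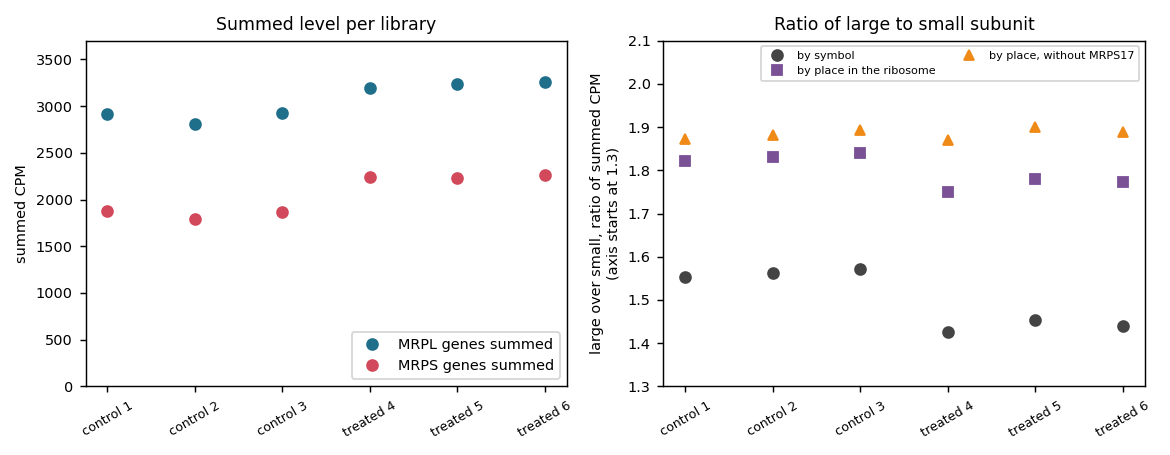
Left, summed CPM (from 0) of the 49 MRPL and 29 MRPS genes in each library; right, the ratio of large to small sums (axis from 1.3) by symbol, by place in the ribosome, and by place without MRPS17. Both sums are higher in all 3 treated libraries, and the ratio separates the groups by symbol (about 1.56 against 1.44) but not by place without MRPS17 (1.88 against 1.89).

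Genes were also set side by side by standard protein name, after a bacterial ribosomal protein or as mitochondrial (mL or mS). Of 46 genes named after a bacterial protein, 28 rose, 13 fell and 5 did not pass (median 0.13). Of 31 genes named as mitochondrial, 19 rose, 9 fell and 3 did not pass (median 0.35). MRPS18A and MRPS18B count among the 31 by name, although they are related to bacterial S18. In the large subunit the medians were 0.15 over 30 genes with a bacterial name and 0.41 over 21 with a mitochondrial name. In the small subunit they were 0.12 over 16 and 0.13 over 10. The spread between the mitoribosomal genes was wider in treated libraries. The SD of log2 TPM over the 78 genes was 0.839, 0.837 and 0.847 in the control libraries and 0.886, 0.899 and 0.891 in the treated libraries, without overlap. The same SD over all genes is not given here, so a general widening cannot be told apart from one of these genes.

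Most genes of the cytosolic ribosome and of the respiratory chain fell, while most mitoribosomal genes rose. Of 86 cytosolic ribosomal protein genes tested, 6 rose and 78 fell, with a median log2 fold change of -0.55. Of 85 nuclear genes of the respiratory chain and ATP synthase tested, 12 rose and 62 fell, with a median of -0.38. The same counts for the mitoribosome were 47 and 23 of 78, with a median of 0.20. These are counts in 1 shared fit, and no test of the difference between the gene groups was made.

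**Figure D4:**
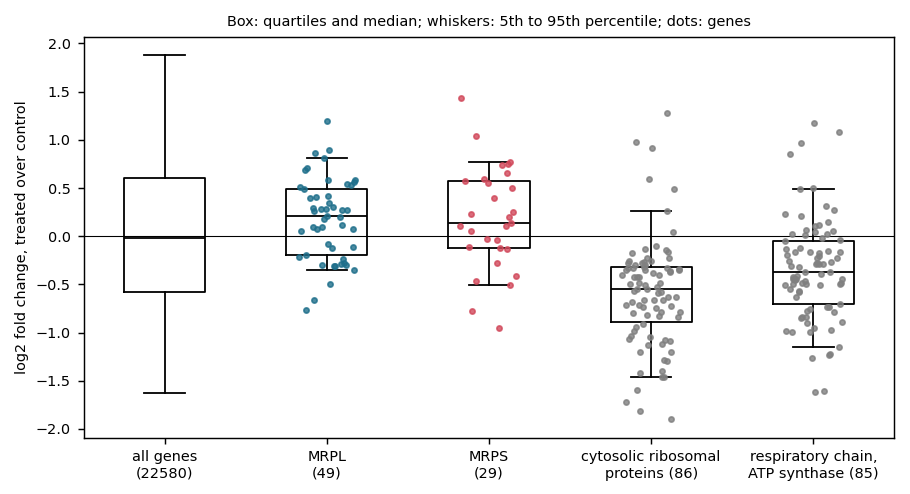
Log2 fold change (treated over control, vertical axis) of all 22580 genes tested, MRPL, MRPS, cytosolic ribosomal protein genes and respiratory chain and ATP synthase genes; boxes show the median and quartiles, whiskers the 5th and 95th percentiles, dots single genes. The medians of MRPL (0.21) and MRPS (0.14) lie above zero, those of the cytosolic ribosome (-0.55) and the respiratory chain (-0.38) below.

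The remaining parts of mitochondrial translation were mixed, with more genes up than down in 4 of the lists. Of 5 mitoribosomal proteins with other symbols, DAP3, a GTP-binding protein of the small subunit, rose from 151 ± 2.63 CPM in control to 178 ± 2.98 CPM in treated libraries (log2 fold change 0.24, adjusted p = 9.5e-07), and CHCHD1, also of the small subunit, rose from 13.8 ± 0.551 CPM in control to 21.9 ± 0.668 CPM in treated libraries (0.67, adjusted p = 4.1e-09). PTCD3, a pentatricopeptide repeat protein, fell by 0.16 on the log2 scale (adjusted p = 0.00099) and AURKAIP1 by 0.24 (adjusted p = 7.6e-06), calls that limma on log2(TPM + 1) did not make (adjusted p = 0.54 and 0.084). GADD45GIP1, a protein of the large subunit, had a log2 fold change of -0.021 that did not pass (adjusted p = 0.61).

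Of 28 genes of mitoribosome assembly and rRNA modification, 17 rose, 9 fell and 2 did not pass (median 0.27). NGRN, needed for the level of the large mitochondrial rRNA, rose from 98.3 ± 2.92 CPM in control to 279 ± 2.71 CPM in treated libraries (log2 fold change 1.505, SE 0.031, adjusted p = 2.8e-17). MTG2, a GTPase of large-subunit assembly, rose from 67.4 ± 0.8598 CPM in control to 148 ± 0.739 CPM in treated libraries (1.13, adjusted p = 9.1e-16). MRM3, which methylates the large rRNA, rose from 28.7 ± 1.02 CPM in control to 70.5 ± 0.227 CPM in treated libraries (1.298, adjusted p = 3e-15). Of those that fell, MALSU1, which keeps the small subunit from joining early, had a log2 fold change of -1.07 (adjusted p = 6.1e-12). NDUFAB1, the mitochondrial acyl carrier protein that binds with MALSU1, was at -1.02 (adjusted p = 4.7e-13), and the pseudouridine synthase RPUSD3 at -0.78 (adjusted p = 1.1e-12).

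Among 20 translation factors and mRNA partners, 12 rose, 4 fell and 4 did not pass (median 0.28). MTIF2, the initiation factor, rose from 87.1 ± 4.66 CPM in control to 185 ± 2.93 CPM in treated libraries (log2 fold change 1.09, SE 0.037, adjusted p = 1.9e-14). GUF1, a GTPase of elongation, rose from 74.004 ± 0.904 CPM in control to 154 ± 2.49 CPM in treated libraries (log2 fold change 1.06, adjusted p = 2.4e-15). MIEF1, whose mRNA also encodes a small protein that binds the assembling mitoribosome, rose from 83.6 ± 1.26 CPM in control to 227 ± 2.72 CPM in treated libraries (1.44, adjusted p = 2.9e-17). MTFMT, which formylates the initiator methionyl-tRNA, fell by 0.54 on the log2 scale (adjusted p = 2.3e-07). OXA1L, which inserts new chains into the inner membrane, fell by 0.16 (adjusted p = 0.0015), which limma on log2(TPM + 1) did not call (adjusted p = 0.30). MTRFR, a rescue factor, fell by 0.82 (adjusted p = 5e-12). Its log2 fold change on log2(TPM + 1) was 0.060 (limma, adjusted p = 0.62), so its direction turned between the fits.

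Transcription and biogenesis regulators numbered 15, of which 10 rose, 3 fell and 2 did not pass (median 0.36). PPARGC1A, a coactivator of mitochondrial biogenesis, rose from a low level of 1.15 ± 0.122 CPM in control to 7.65 ± 0.158 CPM in treated libraries (log2 fold change 2.74, SE 0.12, adjusted p = 4.6e-13). Its relative PPRC1 rose from 104 ± 2.31 CPM in control to 178 ± 1.81 CPM in treated libraries (log2 fold change 0.78, adjusted p = 1.2e-13), and MTERF1, a terminator of mitochondrial transcription, by 0.78 (adjusted p = 8.4e-12). POLRMT, the mitochondrial RNA polymerase, fell by 0.25 on the log2 scale (adjusted p = 5.4e-06) and MTERF2 by 0.34 (adjusted p = 0.00056), neither of them called by limma on log2(TPM + 1) (adjusted p = 0.41 and 0.67). NRF1, a transcription factor of many nuclear mitochondrial genes, fell by 0.31 (adjusted p = 5.1e-05), but with limma on log2(TPM + 1) its log2 fold change was 0.047 (adjusted p = 0.70).

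In mitochondrial RNA processing and decay, the 15 genes split into 8 that rose, 6 that fell and 1 that did not pass, with a median of 0.20. MTPAP, which adds poly(A) to mitochondrial mRNAs, rose by 1.26 (adjusted p = 4.2e-15), the helicase SUPV3L1 by 1.08 (adjusted p = 1.3e-14) and FASTKD5, a processing factor, by 0.89 (adjusted p = 1.3e-12), all log2 fold changes. ELAC2, which trims the 3′ end of mitochondrial tRNAs, fell by 0.98 (adjusted p = 2.4e-14), the exonuclease REXO2 by 0.92 (adjusted p = 3.7e-13) and the ribonuclease LACTB2 by 0.53 (adjusted p = 4.3e-09).

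The rRNAs that the mitoribosomal proteins bind did not move together in these libraries. MT-RNR2, of the large subunit, was at 442, 527 and 429 CPM in control replicates 1, 2 and 3 and 759, 784 and 735 CPM in treated replicates 4, 5 and 6 (log2 fold change 0.70, SE 0.093, adjusted p = 0.002). MT-RNR1, of the small subunit, was at 96.01, 107 and 71.3 CPM in the control libraries and 60.5, 57.98 and 53.7 CPM in the treated libraries (log2 fold change -0.67, SE 0.18, adjusted p = 0.028). Groups were apart for both, but control values of MT-RNR1 spread widely, and its call was lost in 5 of 6 fits that left out 1 library: control replicate 1 or 2 or treated replicate 4, 5 or 6 (adjusted p = 0.063 to 0.11). The labels do not say how rRNA was handled in library preparation, and the part of that step in these levels was not tested.

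Transcripts within a gene could be told apart only by kallisto's sharing of reads, an error that the files do not measure. Of 497 annotated transcripts of the 78 genes 384 were tested, of which 109 rose and 39 fell (38.5%), against 32.7% of all 83015 transcripts tested, 17.5% upward and 15.2% downward. Of 230 protein-coding transcripts tested 75 rose and 29 fell, of 57 processed transcripts 20 and 2, of 34 transcripts marked for nonsense-mediated decay 9 and 3, and of 63 retained introns 5 and 5. Coding transcripts took 88.6% of the members' counts in control and 87.6% in treated libraries, and processed transcripts, which lack an open reading frame, 3.34% and 4.36%.

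Gene by gene, the coding share was lower in all treated than in all control libraries for 16 members and higher for 8, and the groups overlapped for 54. Of the 59 members with counts in both coding and other transcripts these are 27.1% lower and 13.6% higher, against 20.6% and 15.6% of 11948 protein-coding genes with such counts. It went from 70.6% ± 2.04 to 55.05% ± 3.94 for MRPS6, from 77.1% ± 1.3002 to 65.3% ± 1.65 for MRPL42 and from 82.2% ± 2.12 to 70.8% ± 2.95 for MRPS22. For MRPL33 it went from 92.1% ± 0.961 to 81.1% ± 0.546, and for MRPS34 from 69.8% ± 1.02 to 61.2% ± 0.965. MRPS33 and MRPL46 were the other way, from 83.1% ± 1.01 to 90.6% ± 1.04 and from 91.2% ± 0.789 to 95.1% ± 0.466. These shares are given with no test.

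In 12 of the 70 members with at least 2 tested transcripts (17.1%), transcripts were called in both directions, against 12.8% of 12738 such genes. MRPS34, which did not pass as a gene, held a coding transcript (MRPS34-202) that fell from 128 ± 3.53 to 111 ± 2.102 CPM (log2 fold change -0.20, SE 0.032, adjusted p = 0.0051) and a retained intron transcript (MRPS34-203) that rose from 70.8 ± 2.65 to 96.3 ± 1.39 CPM (log2 fold change 0.44, SE 0.037, adjusted p = 0.00036). Summed over coding transcripts alone, the gene's log2 fold change was -0.11 (edgeR, adjusted p = 0.0055). MRPL42, lower as a gene, had a coding transcript (MRPL42-202) that fell from 32.4 ± 1.22 to 23.4 ± 1.58 CPM (log2 fold change -0.47, SE 0.066, adjusted p = 0.0032). Its decay-marked transcript MRPL42-201 rose from 8.59 ± 1.27 to 17.5 ± 2.66 CPM (log2 fold change 1.03, SE 0.16, adjusted p = 0.0045), and its share of the gene went from 9.83% ± 1.42 to 24.4% ± 3.68. In MRPL49 the main coding transcript (MRPL49-201) fell from 93.5 ± 2.02 to 70.4 ± 1.99 CPM (log2 fold change -0.41, SE 0.035, adjusted p = 0.00039), while the processed transcript MRPL49-202 rose from 1.21 ± 0.227 to 6.82 ± 2.46 CPM (log2 fold change 2.499, SE 0.33, adjusted p = 0.0026). MRPS18C showed 2 coding transcripts in opposite directions, MRPS18C-201 from 23.2 ± 0.678 to 14.3 ± 0.769 CPM (log2 fold change -0.70, SE 0.064, adjusted p = 0.00054) and MRPS18C-204 from 4.38 ± 0.854 to 6.68 ± 0.672 CPM (log2 fold change 0.61, SE 0.17, adjusted p = 0.043).

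Many of these genes start back to back with another gene. Within 1000 bases of the annotated starts, 29 members had a divergent protein-coding partner, in 29 pairs, a comparison chosen after seeing the data. Both genes were called in the same direction in 13 pairs and in opposite directions in 10. MRPL32 stands in both counts, through different partners. The same counts were not made over all genes, so these are not set against a background. In 1 pair both genes are mitoribosomal: MRPL46 (chr15:88459476-88467419, minus strand, GRCh38) and MRPS11 (chr15:88467453-88480773, plus strand) start 34 bases apart. The stretch between them, from the RefSeq promoter sequences (GRCh38.p14), is shown in lower case and in the sense of MRPL46. It is all that separates this large-subunit gene from this small-subunit gene as annotated in GENCODE 29. The RefSeq start of MRPL46, used below for motif positions, lies past a further 31 bases.
MRPL46 to MRPS11 interval, chr15:88467420-88467452, minus strand: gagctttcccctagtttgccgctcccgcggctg

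Both genes of this pair rose, MRPL46 as given above and MRPS11 from 58.2, 55.3 and 55.03 CPM in control to 77.7, 80.01 and 80.98 CPM in treated libraries (log2 fold change 0.50, SE 0.036, adjusted p = 7.3e-10). Coding transcripts took only 14.7% ± 1.5 of the counts of MRPS11 in control and 12.8% ± 1.6 in treated libraries. Over coding transcripts alone its log2 fold change was 0.34 (edgeR, adjusted p = 0.017). Other pairs parted. MRPS12 rose while SARS2, the mitochondrial seryl-tRNA synthetase, went from 38.7 ± 1.34 to 13.1 ± 0.216 CPM (log2 fold change -1.57, SE 0.045, adjusted p = 2.3e-15). They share 16.3% of the exonic bases of MRPS12 on opposite strands. MRPS27 fell while PTCD2, an RNA-binding protein of mitochondria, rose from 20.9 ± 0.202 to 47.8 ± 0.633 CPM (log2 fold change 1.19, SE 0.036, adjusted p = 4.2e-15). MRPL36 rose and NDUFS6, a complex I subunit, fell from 105 ± 5.29 to 89.3 ± 2.63 CPM (log2 fold change -0.23, adjusted p = 4.1e-05). MRPL43 rose (log2 fold change 0.41, SE 0.035, adjusted p = 7.8e-09), and so did TWNK, the mitochondrial DNA helicase, from 86.1 ± 3.11 to 219.6 ± 5.59 CPM (log2 fold change 1.35, SE 0.034, adjusted p = 3.6e-16). On opposite strands, TWNK shares 4.17% and SEMA4G 32.75% of the exonic bases of MRPL43, and PTCD2 2.92% of those of MRPS27.

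**Figure D5:**
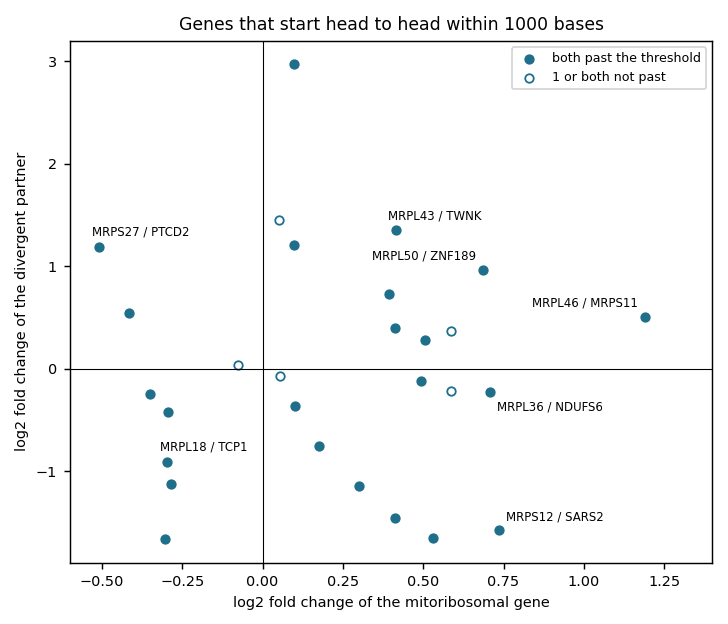
Log2 fold change of each mitoribosomal gene (horizontal axis) against that of the protein-coding gene that starts head to head with it within 1000 bases (vertical axis), for the pairs in which both were tested; filled points have both genes past an adjusted p of 0.05. Filled points fall in all 4 quadrants, 13 with matching and 10 with opposite directions.

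Promoter windows of 69 of the 78 genes were found in RefSeq (GRCh38.p14, 250 bases before to 50 after the start of transcription), and were searched on both strands for motifs of factors known to act on nuclear mitochondrial genes. The core of the ETS family, to which GABPA belongs, CCGGAAG, was present for 30 of the 69 genes (43.5%), against 16.5% of 15843 protein-coding genes with a window and 10.3% of all 35116 windows. The motif of YY1 (its letters in capitals in the sites shown next) was present for 10 (14.5%), against 1.58% of the protein-coding genes and 0.849% of all windows. Matches of these 2 motifs did not overlap each other, and 3 genes held both. The palindromic motif of NRF1 was present for 1 (1.45%), against 1.99% of the protein-coding genes and 1.24% of all windows, and in a form with any base at one middle position for 9 (13.0%), against 9.67% and 5.78%. The amino acid response motif TGATGNAA was present for 1 (1.45%), against 3.604% and 3.62%. A match of letters is a description of the window.

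By direction, the ETS core was in 19 of 44 genes that rose, 7 of 18 that fell and 4 of 7 that did not pass. The YY1 motif was in 9 of the 44 that rose, 1 of the 18 that fell and none of the 7 others, counts with no test. YY1 itself rose from 120.0 ± 6.28 CPM in control to 158 ± 4.23 CPM in treated libraries (log2 fold change 0.39, adjusted p = 5.1e-08), and GABPA from 60.05 ± 1.86 CPM in control to 76.2 ± 2.36 CPM in treated libraries (0.34, adjusted p = 1.9e-07). These are mRNA levels, and whether either factor acted on the mitoribosomal genes was not tested. The YY1 matches of the 9 genes that rose are shown with 9 bases on each side, in the sense of each gene and with the motif in capitals, because they share letters and lie close to the start: counting the first transcribed base as 0, the motif begins at position 6 to 23 in 8 of them, and in MRPL36 at position -38 on the opposite strand. In those 8 the motif thus lies in transcribed bases. Its letters hold ATG, and whether that is the start codon of the protein was not tested.
MRPL46, chr15:88467361-88467389, minus strand: ggagaacgaAAGATGGCGGCgcccgtaag
MRPS30, chr5:44808951-44808979, plus strand: tcgcgggcaAAGATGGCGGCggccaggtg
MRPS10, chr6:42217833-42217861, minus strand: gggaccggcAAGATGGCGGCgcggacagc
MRPL36, chr5:1799856-1799884, minus strand: cccccccccGCCGCCATCTTccttcctgg
MRPL50, chr9:101398576-101398604, minus strand: atctcatcgAAGATGGCGGCgcgatctgt
MRPS18B, chr6:30617854-30617882, plus strand: gcgtacgtcAAGATGGCGGCgtctgtatt
MRPL38, chr17:75904859-75904887, minus strand: gccggagggAAGATGGCGGCgccctggtg
MRPS18A, chr6:43687763-43687791, minus strand: aggtttttgAAGATGGCGGCcctcaaggc
MRPS24, chr7:43869479-43869507, minus strand: gcttggcccAAGATGGCGGCctccgtgtg

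These 9 genes had log2 fold changes from 0.10 (MRPS24) to 1.19 (MRPL46). ETS cores, in capitals with 11 bases before and after, are shown for 4 genes that rose and 3 that fell, since the same letters stand in the windows of both.
MRPL58, chr17:75012651-75012679, plus strand: ggaagcgcccgCCGGAAGcagtcgcaaga
MRPL40, chr22:19432523-19432551, plus strand: ggggcgcacgcCCGGAAGcggcgagggta
MRPS10, chr6:42217866-42217894, minus strand: ccgctgtaaccCCGGAAGcaatcctgaga
MRPS12, chr19:38930928-38930956, plus strand: acggatagcgcCCGGAAGaggctagaagc
MRPL3, chr3:131502986-131503014, minus strand: tgtaaaacgcaCCGGAAGtgggtccggcg
MRPL18, chr6:159790430-159790458, plus strand: gggacttgctaCTTCCGGgtcggtggcgt
MRPS18C, chr4:83455825-83455853, plus strand: gggctcgcggaCCGGAAGcacgcataaac

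Of these 7, the core of MRPL18 is on the opposite strand, and that of MRPS18C lies farthest from the start, at position -222. MRPL18 itself went from 56.4 ± 1.77 CPM in control to 45.8 ± 1.38 CPM in treated libraries (log2 fold change -0.30, SE 0.039, adjusted p = 2.3e-06). With limma on log2(TPM + 1) MRPL18 was not called (log2 fold change -0.16, adjusted p = 0.12), and neither was MRPL3, as given above. Identical cores thus stood in windows of genes with log2 fold changes from -0.41 to 0.90.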

How the data were processed

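RNA of 6 A375 cultures was measured, 3 untreated and 3 treated with hMGL for 24 h. Per the file headers, the authors deposited estimated counts (expected counts, not whole numbers), TPM, length and effective length of 244939 transcripts per library. Of tools, kallisto 0.45.0 and DESeq2 1.30.0 appear in the submitters' processing notes. The genome build, the strand setting and the rRNA step are not given in the sources used here. By identifier, 203436 transcripts matched GENCODE 29 (GRCh38) and were summed to genes. The other 41503 (4.86% to 5.13% of a library's counts) were left out, so a gene's level may be a part of its total.

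Gene sums were rounded, filtered with filterByExpr (minimum count 10, minimum total 15), scaled by TMM (trimmed mean of M values) and compared between the groups in R 4.3.3 with edgeR 4.0.16, by its two-sided quasi-likelihood F test with robust dispersion. The Benjamini-Hochberg adjustment took in all genes tested, with a threshold of 0.05, and every adjusted p is from this fit unless another is named. Transcripts were fitted the same way. The common biological coefficient of variation was 0.074. Levels of single members were compared with each other only in TPM, since the longer a transcript the more reads it gives. Sums in CPM, of members and of markers, and the ratios of such sums give longer transcripts more weight.

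The alternatives were DESeq2 1.42.0, other scalings and filters, limma 3.58.1 on log2(TPM + 1) and log2(TPM + 0.1), offsets for effective length and for GC content with length (mgcv 1.9.3), coding transcripts only, a required change of at least 1.5-fold, subunits by place in the mitoribosome, and each library left out. TPM entered limma without TMM scaling. Sums without MRPS17 and summed TPM by place were added after seeing the data. The members and lists were chosen with earlier results of these data known. Members named singly are the 5 highest and 5 lowest changes of each subunit among those past the threshold with groups apart, the 3 of highest TPM, and 13 fixed by symbol. From each list, up to 3 that rose and 3 that fell with the lowest adjusted p are named, and lists of 5 or fewer in full. MRPS11, MRPL43, MRPL18, YY1, GABPA, genes of promoter matches and divergent partners were named after their values were seen. One marker of the fixed lists is not reported here. Promoter sequences are those of RefSeq (GRCh38.p14).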

Additional observations from a re-analysis of the deposited data

How the results depend on the processing

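Over 16 alternatives other than the 1.5-fold requirement, 39 of the 47 genes that rose were called higher in every one and 10 of the 23 that fell were called lower in every one, and none was called in the other direction. Requiring a change of at least 1.5-fold left 11 higher and 4 lower members, 6 and 2 of them MRPL and 5 and 2 MRPS. With limma on log2(TPM + 1) 10 members fell, 5 of each subunit, and with log2(TPM + 0.1) 11 fell, 6 MRPL and 5 MRPS. The median log2 fold change of MRPL was 0.29 with library totals, 0.26 with limma at both pseudocounts and 0.16 with an offset for effective length, and that of MRPS was 0.21 with library totals and 0.20 and 0.21 with limma. Leaving out 1 library gave medians of 0.20 to 0.26 for MRPL and 0.13 to 0.20 for MRPS, 47 to 51 higher and 19 to 23 lower members, and 84 to 94 higher and 26 to 32 lower transcripts. The treated over control ratio of summed levels was 1.18 (library totals) and 1.20 (TPM) for MRPL, and 1.28 and 1.27 for MRPS. The ratio of large to small sums, treated over control, was 0.965 by place, 0.944 on TPM, 0.993 on TPM by place, 0.951 without MRPS17 and 1.002 without MRPS17 by place, where it turned.

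Among members close to the threshold, 4 lost their call when 1 library was left out. MRPL22 lost it without control replicate 1 or 3 or any 1 treated replicate (log2 fold change -0.11 to -0.040), MRPL53 without control replicate 1 or 3 or treated replicate 4 or 5 (-0.11 to -0.077), MRPS28 without control replicate 1 or any 1 treated replicate (-0.12 to -0.071), and MRPS35 without control replicate 3 or treated replicate 4 or 5 (-0.095 to -0.064). Another 5 gained one: MRPS34 without control replicate 1 or any 1 treated replicate (0.074 to 0.091), MRPL34 likewise (0.099 to 0.13), MRPL4 without any 1 treated replicate (0.082 to 0.12), MRPL21 without treated replicate 4 (0.11) and MRPL30 without control replicate 1 (-0.098). The direction turned under at least 1 alternative in 8 members. Of these, 2 had been called: MRPL35 (-0.27, and 0.012 and 0.013 with limma) and MRPL22 (-0.11, and near 0 with limma). The other 6 had not: MRPL21, MRPL30, MRPS14, MRPS26, MRPS34 and MRPS22. Called in the turned direction were MRPS34 over coding transcripts (-0.11) and MRPS26 with the GC offset (0.13). Values that turned for genes named singly were MRPS22 with limma (0.16 and 0.17) and with the effective length offset (0.057), MTRFR (0.060 and 0.067) and NRF1 (0.047 and 0.053) with limma, and GADD45GIP1 with library totals (0.055), limma (0.081 and 0.082), the GC offset (0.10), coding transcripts (0.0089) and without control replicate 1 (0.0052) or 3 (0.0015) or treated replicate 4 (0.014), 5 (0.016) or 6 (0.0012). The causes were not tested.

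No paired analysis was possible because the groups share no replicate numbers. With 3 cultures a group, and with read sharing between transcripts and overlapping genes not measured, changes of about 0.1 on the log2 scale are at the limit of these data.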
